A study of Drosophila melanogaster with 7 samples.

Results

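Arc capsid genes and activity-induced factors, a named set of 5 among 14476 genes on intact lines of the deposited table, were followed in Drosophila melanogaster brains in which the circular RNA circMbl was knocked down. They are Arc1, Arc2, sr (stripe), h (hairy) and CG30497. They were chosen by name when the knockdown differences of these libraries were already known, so their values in that comparison are a description and carry no test. All 5 were found. Control flies carried Actin-GAL4 and UAS-sh8MM, a hairpin with 8 mismatches, and knockdown flies carried Actin-GAL4 and UAS-sh-circMbl. The driver was thus shared by both groups and is active in most tissues, not in neurons alone. There were 5 control and 2 knockdown libraries, all titled day 3. The labels give no sex, no number of brains per library and no neuronal stimulation, so whether the genes respond to activity was not measured here.

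Arc proteins descend from the gag gene of Ty3-type retrotransposons and assemble into virus-like capsids. At the fly neuromuscular junction Arc1 protein binds its own transcript and travels with it in vesicles from motor neuron to muscle. Activity-regulated genes are transcribed soon after neurons fire, and calcium, cAMP and ERK signalling to factors such as CREB is the classical route to them. The gene sr encodes a zinc finger factor of the Egr family, best known in flies for directing tendon cell fate, and mammalian Egr1 is a standard marker of recent neuronal firing. The product of h is a basic helix-loop-helix repressor of the Hes type, which works with the corepressor Groucho and is known from embryonic segmentation.

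On the BDGP6 assembly (dm6), Arc1 (FBgn0033926) lies on 2R from 14357927 to 14360297 on the minus strand. Arc2 (FBgn0033928) lies beside it on the plus strand, from 14361924 to 14362825. The 1626 bp between them separate their 5′ ends, so the 3′ ends that are counted here point away from each other. The gene sr (FBgn0003499) spans 3R from 18090803 to 18135583 and has 5 annotated transcripts with 2 different 3′ ends. The only annotated genes overlapping it are tRNA genes that hold none of these ends. The gene h is annotated as hry (FBgn0001168), on 3L from 8675759 to 8679253. CG30497 is annotated as CG46385 (FBgn0286778), on 2R from 7737019 to 7782637, with 6 transcripts and 3 different 3′ ends between 7737019 and 7739114. No other annotated gene overlaps Arc1, Arc2, h or CG30497, transposable elements aside. Arc1 and Arc2 are paralogs, and how the authors' counting treated reads shared by paralogs is not given in the sources used here.

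Control libraries held 3732675 to 5546121 reads on the lines used, and the knockdown libraries fewer, 3260649 and 3308580. The control libraries bear lane code L7 (replicates 1, 4 and 5) or L5 (replicates 2 and 3) and one date code. Both knockdown libraries bear lane code L2 and another date code, so these codes and genotype cannot be told apart. The titles do not say what the codes stand for, so lane and date are inferred readings. The labels do not say which libraries came from separate flies, so p-values measure only the spread between libraries, which may be technical. The linear mbl gene, from which circMbl is made, read 3323 to 4122 normalized counts among controls, with 2770 and 2304 for the 2 knockdown libraries. These counts come from polyadenylated ends and do not measure the circle. All 7 neuronal markers examined, among them elav, nSyb and Syt1, were above 0 in every library, and summed to between 38561 and 45719 normalized counts in controls and to 47811 and 56017 in the knockdown. Without nSyb, the synaptobrevin gene, which held 4075 to 5326 against 12461 and 11192, the sums were 34327 to 40418 and 43557 and 36619, and the groups overlapped.

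Arc1 stood lower in both knockdown libraries than in any control, and Arc2 was not detected in the knockdown. In control replicates 1 to 5 Arc1 read 693.8, 593.6, 552.6, 749.6 and 665.1 normalized counts, against 258.6 and 275.3 in knockdown replicates 1 and 2. The groups did not overlap, and the 2 knockdown values lay closer together than the controls of either lane code. Control libraries averaged 651.0 ± 78.6 (SD, n = 5) and knockdown libraries 267.0 ± 11.8 (SD, n = 2). The difference between means of log2 values was -1.275 ± 0.15 (SE), which is 2.42-fold lower. Of the 7287 genes tested, 42 had a lower log2 difference. In whole brains, fewer cells of a type and less RNA per cell cannot be told apart.

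The controls themselves differed in Arc1. Both L5 controls lay below all 3 L7 controls, with means of 573.1 and 702.8 normalized counts. That log2 difference of -0.29 ± 0.10 (SE) passed in a limma fit of knockdown, L5 and L7 libraries (adjusted p = 0.0451, 0.0215 to 0.312 over the alternatives), a contrast in which 28.2% of genes passed. It was called under 7 of 15 alternatives, with L5 lower in each, and the call ended when any one of the 5 controls was left out (adjusted p 0.0625 to 0.204). Set against the L5 controls alone Arc1 was 2.14-fold lower in the knockdown, and against the L7 controls alone 2.62-fold lower. Counting error alone would give the control values a coefficient of variation of 3.74%, and the observed one was 12.1%.

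Arc2, the smaller neighbour, is transcribed at the edge of detection here. It held 1, 5, 9, 5 and 5 reads in control replicates 1 to 5 and 0 reads in each knockdown library. Both knockdown libraries also held fewer reads in all than any control. In normalized counts the controls ranged from 0.778 to 8.19, and the 95% Poisson intervals of the knockdown libraries reached up to 4.79 and 4.49, which overlap those of every control. A limit of 3 reads over both knockdown libraries equals 1.89 normalized counts, and the control mean of 4.65 was 2.47-fold above that limit. The control mean rests on 25 reads and its own error is left out, so 2.47 is not a lower bound. Control replicate 1, at 0.778, lay below the limit. Such intervals and limits cover counting error only. With a mean below 10 normalized counts Arc2 was not among the genes tested.

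**Figure D1:**
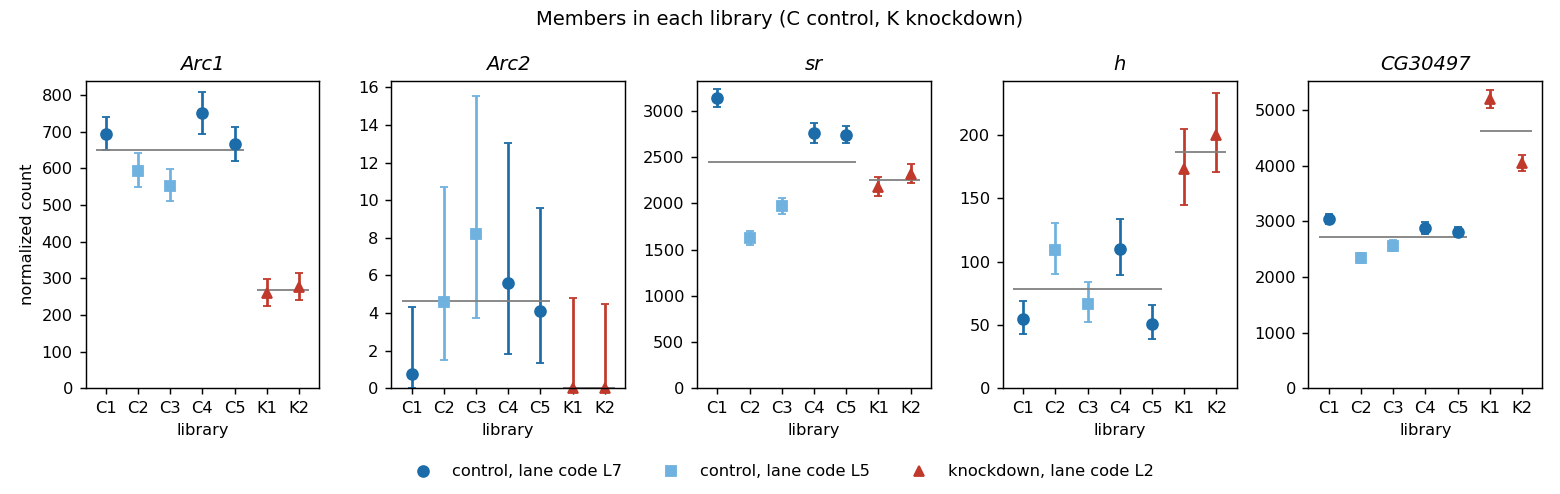
Normalized counts (vertical axes, each from 0) of the 5 members in the 7 libraries (horizontal axes), with 95% Poisson intervals of counting error and grey lines at the group means. Arc1 is lower in both knockdown libraries (258.6 and 275.3) than in any control, h and CG30497 are higher, and sr in the knockdown lies between the L5 and L7 controls.

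The Egr-type gene sr stood at much the same mean in both groups, and its largest difference was between control libraries. Its control replicates 1 to 5 read 3142, 1622, 1970, 2759 and 2743 normalized counts, and the knockdown libraries 2180 and 2323. Both knockdown values lay above both L5 controls and below all 3 L7 controls. The L5 mean of 1796 was 1.61-fold below the L7 mean of 2881, and that log2 difference of -0.69 ± 0.11 passed (limma, adjusted p = 0.000908, 2.55e-08 to 0.0134 over the alternatives). The knockdown difference was -0.08 ± 0.24 on the log2 scale against all controls, 0.33 ± 0.13 against L5 and -0.35 ± 0.09 against L7. Its direction thus depended on which controls were used, and no direction is given for sr. Other tendon markers (Tsp, slow and Lrt) summed to between 148.4 and 225.9 normalized counts in controls and to 145.6 and 185.1 in the knockdown, far fewer than sr in each library.

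**Figure D2:**
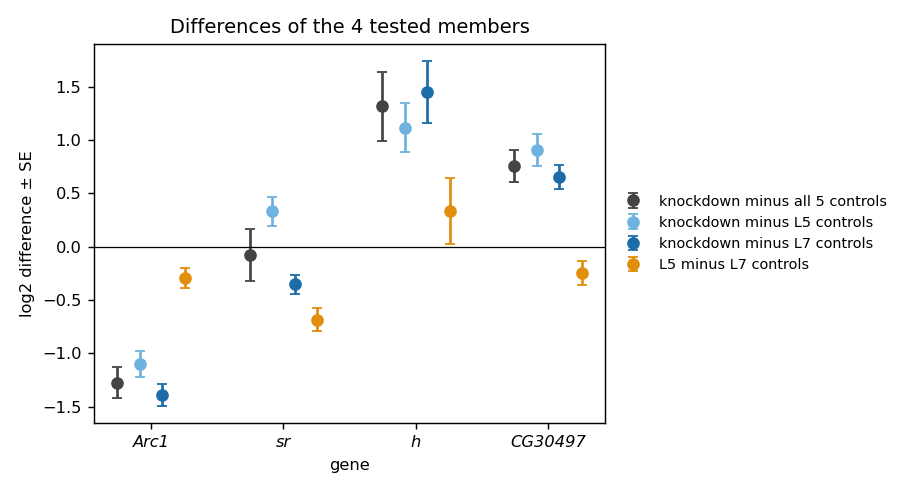
Log2 differences (vertical axis, ± SE) of the 4 members tested (horizontal axis), for the knockdown against all 5 controls, the L5 controls and the L7 controls, and for L5 against L7 controls. For sr the knockdown difference is 0.33 against L5 and -0.35 against L7 controls, while Arc1, h and CG30497 keep their side of 0 in these 3 comparisons.

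The repressor gene h stood higher in both knockdown libraries than in any control, and among the controls it followed the title number of the library. Normalized counts of h ran 54.4, 108.8, 66.5, 109.6 and 51.0 over control replicates 1 to 5, then 172.9 and 199.8 for the knockdown. The control mean was 78.1 ± 29.0 (SD, n = 5) and the knockdown mean 186.3 ± 19.0 (SD, n = 2). The difference between means of log2 values was 1.32 ± 0.32, or 2.49-fold, which is not the ratio of these 2 means. Only 90 of the 7287 genes had a higher log2 difference. Control replicates 2 and 4, the 2 controls with title number 3, held 108.8 and 109.6, while the other 3 lay between 51.0 and 66.5. This step did not follow lane code, since each of these replicates comes from a different one, and L5 did not differ from L7 by the test (log2 difference 0.33 ± 0.31, limma, adjusted p = 0.454, 0.0547 to 0.98 over the alternatives). The labels do not say whether libraries with one title number share RNA.

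Among 5082 genes with a mean of at least 50, the profile of h over the 7 libraries was nearest to that of the yolk protein gene Yp3. Their centred log2 values differed by a root mean square of 0.15. Next came Sodh-1, a sorbitol dehydrogenase gene, at 0.17, and CG8036 at 0.20. Yp3 read 2302, 4740, 2877, 4131 and 2376 normalized counts across the controls, against 9385 and 8416 with knockdown, and its 2 highest controls were those of h. Of 8 fat body and hemolymph markers listed, 7 were on intact lines and 6 were above 0 in every library. Summed, they gave 15609, 35929, 20691, 26932 and 14945 normalized counts across controls, against 50224 and 44065 with knockdown. This sum includes Yp3. Without Yp3 it was 13307, 31189, 17814, 22802 and 12569 across controls and 40839 and 35648 with knockdown, and Yp1 and Yp2 made up most of it. The part of fat body and hemolymph in the values of h was not tested. The rhodopsin gene ninaE, a photoreceptor marker, followed title number as well, with 1840 and 2072 in the title 3 controls and 445.2 to 584.9 in the others. Within the knockdown ninaE held 599.2 (title 2) and 1920 (title 3), whereas h held 172.9 and 199.8.

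**Figure D3:**
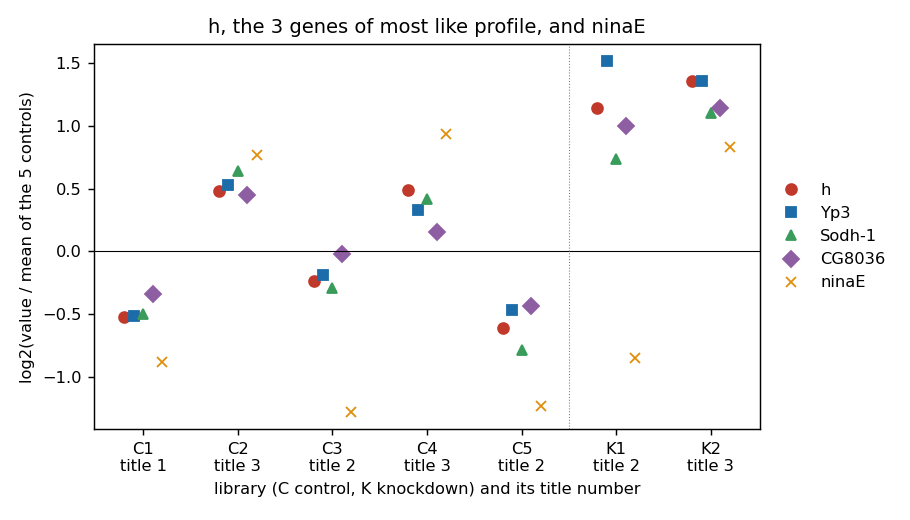
Log2 ratio of each value to the mean of the 5 controls (vertical axis) in the 7 libraries with their title numbers (horizontal axis), for h, for Yp3, Sodh-1 and CG8036, whose profiles were nearest to it, and for ninaE. In controls 2 and 4 all 5 genes stand above 0, and in knockdown 1 ninaE is low where h, Yp3, Sodh-1 and CG8036 are high.

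CG30497, a gene without an assigned role here, was abundant in every library and higher in both knockdown libraries. Control replicates 1 to 5 read 3042, 2336, 2566, 2877 and 2807 normalized counts of it, against 5203 and 4045 with knockdown. The groups did not overlap, and knockdown replicate 1 was the higher of its pair. Its means were 2725 ± 277 (SD, n = 5) and 4624 ± 819 (SD, n = 2). The difference between means of log2 values was 0.76 ± 0.15, or 1.69-fold. Both L5 controls were again lower than every L7 control, although the difference of -0.25 ± 0.11 did not pass (limma, adjusted p = 0.13, 0.0567 to 0.996 over the alternatives). The nearest profile was that of hep, which encodes the kinase that activates JNK, at a root mean square difference of 0.05, followed by Uhg1 at 0.05 and CG40228 at 0.06. For hep the controls read 859.4, 644.9, 709.2, 775.4 and 775.4 normalized counts, against 1331 and 1135 with knockdown.

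By the same measure Arc1 was nearest to l(2)37Bb (0.12), CG13928 (0.13) and ATPCL, the ATP citrate lyase gene (0.14). The neighbours of sr were closer, with CG17233 at 0.04, Bub3, a spindle checkpoint gene, at 0.06 and the tetraspanin gene Tsp42Ee at 0.06. Those of Arc2 were phu, Cpr67B and CG10553, at 0.62 to 0.71, which with 0 to 9 reads a library is a loose match. Among the 5 genes themselves the closest pair, sr and CG30497, stood 0.44 apart.

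Of the 5 members 4 were tested over all genes, and 3 of them passed the threshold in the knockdown comparison (limma, adjusted p under 0.05), a rule under which 6.11% of genes passed. Arc1 was among the 2.63% that were lower, and h and CG30497 among the 3.47% that were higher. The same 3 had no overlap between groups, which held for 32.4% of the genes tested. Nothing is read from these counts, since the comparison was known when the genes were named. In the contrast of L5 with L7 controls, which did not enter the choice, 2 of the 4 passed, Arc1 and sr, beside 28.2% of all genes tested. Both were lower in L5, a direction in which 16.9% of genes passed. For Arc1 this call was lost in 8 of 15 alternatives. A single knockdown library against the controls kept none of the 3 calls, and h was also not called without control replicate 1, 3 or 5, nor CG30497 without control replicate 4 or 5.

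**Figure D4:**
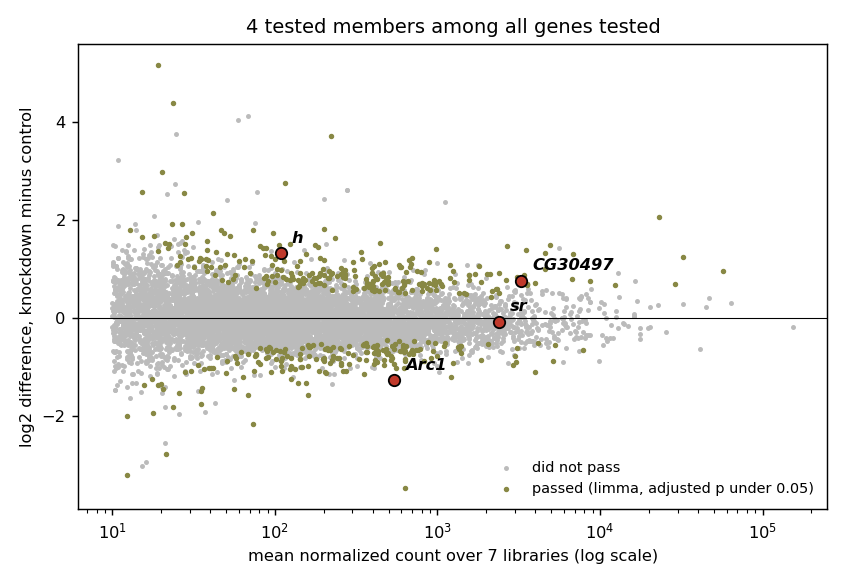
Log2 difference between knockdown and control (vertical axis) against the mean normalized count over 7 libraries (horizontal axis, log scale) for the 7287 genes tested, with the 4 tested members marked. Arc1 (-1.275) and h (1.32) stand towards the lower and upper edge, CG30497 (0.76) lies among abundant genes and sr (-0.08) near 0.

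Other genes of activity-regulated transcription showed no common direction. Of 9 tested, 0 were higher and 1 was lower (limma, 4 at an unadjusted p under 0.05, as were 25.5% of all genes tested), with a median log2 difference of 0.14 beside -0.02 over all genes tested. The lower one was puc, the phosphatase that restrains JNK, at 700.0, 462.8, 579.0, 682.5 and 591.8 normalized counts across controls and 362.6 and 311.8 with knockdown (limma, adjusted p = 0.032). It was not called without control replicate 1, 4 or 5. The nuclear receptor gene Hr38, used in flies as a marker of recent firing, read 229.4, 107.0, 142.9, 170.1 and 188.5 normalized counts across controls, against 267.7 and 241.2 with knockdown. Both knockdown values were above every control, but the difference of 0.64 ± 0.26 did not pass (limma, adjusted p = 0.16). Like sr, Hr38 was lower in L5 than in L7 controls (log2 difference -0.65 ± 0.16, limma, adjusted p = 0.0134). The zinc finger gene cbt had 0.18 ± 0.12, CG14186 had 0.14 ± 0.13, CG8910 had 0.36 ± 0.14 and the AP-1 gene Jra had -0.33 ± 0.21, and none of these passed.

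**Figure D5:**
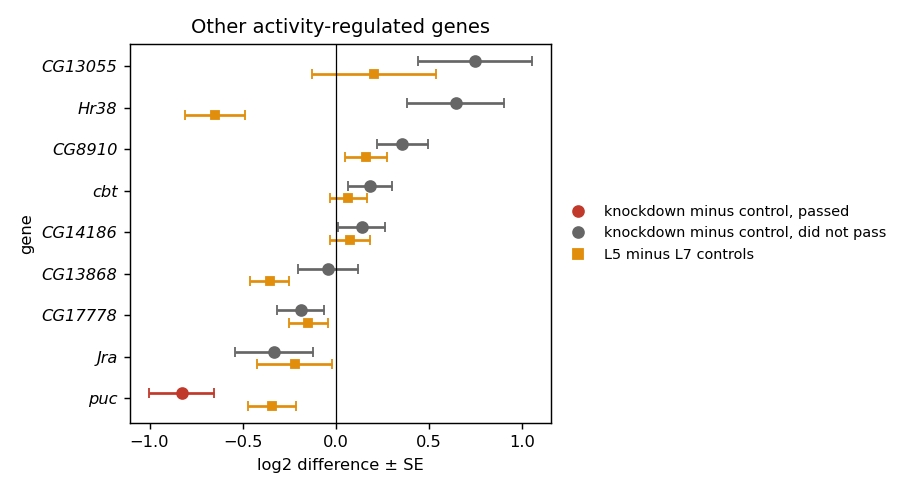
Log2 differences (horizontal axis, ± SE) of the 9 other activity-regulated genes tested (vertical axis), for knockdown against control (circles) and for L5 against L7 controls (squares). The circle of puc (-0.83) is the one that passed, and Hr38 lies at 0.64 for the knockdown and at -0.65 for L5 against L7.

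Without either knockdown library no gene of the lists that follow passed. In the knockdown comparison 3.47% of all genes tested passed as higher and 2.63% as lower (limma, adjusted p under 0.05). These lists were chosen with earlier results of these data known, so nothing is read from their counts. In the signalling list that leads to activity-regulated genes 2 of 20 rose and 0 fell, with a median of 0.03. They were CaMKII, the calcium and calmodulin dependent kinase, at 825.3 ± 61.4 (SD, n = 5) against 1371 ± 7.3 (SD, n = 2), and CrebB, the CREB gene, at 267.9 ± 20.5 against 392.7 ± 38.9 (limma, adjusted p = 0.0153 and 0.0487). That count fell to 1 without control replicate 1, 3, 4 or 5. The muscle and neuron factor gene Mef2 had -0.50 ± 0.13 and did not pass (limma, adjusted p = 0.0559). Of 10 genes of the JNK and AP-1 pathway 1 rose and 2 fell, with a median of -0.24. The risen gene was hep (1.64-fold), and puc (1.77-fold) and the kinase gene Tak1 (1.78-fold) were lower, with limma adjusted p-values between 0.0109 and 0.032, and 1 call was left without control replicate 4 or 5. Genes for the ecdysone and zinc finger factors included 1 riser among 12, Eip75B, an ecdysone-induced nuclear receptor gene, 1.78-fold higher (limma, adjusted p = 0.02), with a median of 0.14, and 2 passed without control replicate 2.

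Of 16 listed partners and relatives of h, 8 were on intact lines and 6 were tested, so the rest of the list was not examined. None of the 6 passed (limma, 2 at an unadjusted p under 0.05, beside the same 25.5%), with a median of 0.075. The corepressor gene CtBP had 0.31 ± 0.13. The neural repressor gene dpn had -1.63 ± 0.65, with 1.3 and 9.74 normalized counts in the knockdown. The part of extracellular vesicle and ESCRT genes in the release of Arc was not tested. Among 17 of these genes 0 rose and 1 fell, with a median of -0.20. It was the ESCRT-III gene Chmp1, from 557.5 ± 34.4 (SD, n = 5) to 341.1 ± 43.0 (SD, n = 2) (limma, adjusted p = 0.02), and 0 passed without control replicate 5 and 2 without control replicate 2. The ESCRT-III gene Vps24 had -0.41 ± 0.12 and did not pass, and Vps4, its disassembly ATPase, had -0.76 ± 0.31 and was lower in L5 than L7 controls by 0.91 (limma, adjusted p = 0.000229). Of 11 postsynaptic and mRNA transport genes 1 rose, stau, whose double-stranded RNA binding protein moves transcripts, from 3587 ± 367 (SD, n = 5) to 7122 ± 699 (SD, n = 2) (limma, adjusted p = 0.00904). The scaffold gene homer, with 87.3 ± 29.7 against 167.5 ± 9.5, did not pass. Gagr, another gene derived from a retrotransposon gag, held 34.1 ± 10.2 (SD, n = 5) and 59.0 ± 24.9 (SD, n = 2) and did not pass either (log2 difference 0.76 ± 0.35).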

How the data were processed

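Per the labels' protocols, brains were dissected in cold buffer, RNA was extracted with Trizol and treated with DNase I, and libraries followed a CEL-seq2 protocol adapted to bulk RNA, which counts polyadenylated 3′ ends. The submitters' processing notes name STAR and dm6. How reads were assigned to genes, with which strand rule, and whether molecular identifiers were collapsed is not given in the sources used here. Normalized counts, a signal per gene, are what the authors deposited. On intact lines 100% of the values above 0 were whole multiples of 1 step per library (within 0.001 of a read), which gave the reads per library. They may be molecules.

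Of 16616 gene lines, 14476 had 7 numeric values and nothing elsewhere. Not used were the other 2140, nearly all holding a stretch of another table, and 402 columns with no sample. Listed genes absent from intact lines have no value. Symbols and positions came from the RefSeq gene table (Release 6 plus ISO1 MT) and the Ensembl BDGP6 annotation.

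Values were taken as log2(value + 1). Genes with a mean of at least 10 (7287) were fitted with limma 3.58.1 in R 4.3.3 (lmFit, eBayes with a trend), without covariates, as knockdown against control and as 3 groups (knockdown, L5, L7). Adjustment followed Benjamini-Hochberg over all genes tested, and calls needed 0.05. Folds sit on that log2 scale and can differ from the ratio of the printed means. The added 1 shrinks the change of low genes. Members, 8 pathway lists and 8 marker lists were chosen with earlier results of these data known. Named list genes were those past the test, or up to 3 with the smallest p, in each list without the members. Genes of like profile were the 3 with the smallest root mean square difference of centred log2 values. Alternatives were another pseudocount, filter or scaling, each library left out, controls of 1 lane code, averaged controls and replicate blocks. Fits were checked on simulated data.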

Additional observations from a re-analysis of the deposited data

Results flagged for a closer look

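The knockdown difference of sr depended on the controls it was set against. L5 controls stood below L7 controls by a log2 difference of -0.69 (limma, adjusted p = 0.000908), and both knockdown libraries lay between them.

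For Arc1 the difference also changed in size with the controls used, since L5 stood below L7 by -0.29 (limma, adjusted p = 0.0451), but its direction was the same against both. The call between L5 and L7 was lost in 8 of 15 alternatives.

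Among the 5 controls, replicate 2 stood apart for Eip75B, with 2041 normalized counts where the other 4 held 2546 to 2701. Of 25 genes checked in this way it was the only one, and chance alone marks about 1 group in 20.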

How the results depend on the processing

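Against all controls 445 genes passed. The count was 1084 with the L5 controls only, 2410 with the L7 controls only and 1310 with same-titled controls averaged, and it ranged from 1 to 667 with one library left out. It was 203, 177 and 133 without control replicate 1, 4 or 5, and 1 without either knockdown library, where the lone library is assumed to vary like the controls. Between L5 and L7 controls 2057 genes passed, and 1089 to 2140 with one library left out, 1089 without control replicate 2.

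Arc1 kept its direction and its call in 16 of 18 alternatives, and lost the call without either knockdown library. The calls of h and CG30497 ended in 7 and 6 of 18. Among them were the fits without either knockdown library and without control replicate 5 for both genes, without control replicate 1 or 3 and without a filter for h, and without control replicate 4 for CG30497. The direction of both held throughout. These alternatives reuse the same 7 libraries and a comparison known when the genes were named. Nothing is thus read from a call that Arc1, h or CG30497 kept. The log2 difference of sr was 0.0019 with quantile normalization and 0.33 against L5 controls, and ran from -0.22 to 0.021 with one library left out. It passed against L7 controls only. The difference of h between L5 and L7 ran from -0.019 to 0.685 with one library left out. Without a filter Arc2 did not pass. Its fitted value depends on the pseudocount and is not given.

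The labels do not say whether replicate numbers pair the libraries, and they were not taken to do so, although the photoreceptor marker sum followed title number under every lane code. Deviations of same-numbered libraries correlated at 0.17 across 5082 genes for the source name numbers, and at 0.18 (L5) and -0.03 (L7) for the title numbers. With a replicate block by source name number 120 genes passed, and 51 with a replicate block by title number, under which sr had 0.021. Control replicates 3, 4 and 5 share no number with another library under the first of these, nor does control replicate 1 under the second. Such libraries add nothing to the fitted difference. Under the first CG30497 and under the second h and CG30497 were not called. Both blocks left 0 calls in the activity-regulated, calcium, JNK and ESCRT lists, and the title block left 0 also in the Egr-type and postsynaptic lists. The edgeR alternative was not run, because the columns, damaged lines included, were not accepted as counts. Counting error limits Arc2, with 9 reads at most.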

Other observations

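Marker genes of other tissues, summed over their lists, gave these normalized counts. Photoreceptor markers (7 of 8 on intact lines) stood between 3301 and 5875 in controls and at 3595 and 6162 in the knockdown. Glial markers (5 of 7) stood between 56603 and 71109 in controls and at 74800 and 81900 in the knockdown, and Gs2 made up most of that sum. Without Gs2 the glial sums overlapped, at 3727 to 5390 in controls and 3893 and 4184 in the knockdown. Groups overlapped for nrv2 and wrapper. Both knockdown values of alrm (664.2 and 761.25) and moody (657.7 and 672.3) lay below every control. Their lowest controls were close, at 763.1 and 680.1, and 32.4% of all genes tested had no overlap. Muscle markers (9 of 9) stood between 1255 and 2276 in controls and at 911.1 and 1317 in the knockdown. Both knockdown values of Mhc, TpnC41C, Mlp60A and Prm lay below every control, beside the same 32.4%. For Mlc2, Act88F, Act57B, up and wupA the groups overlapped. Hemocyte markers (5 of 6) ranged from 124.4 to 242.8 in controls and from 120.6 to 192.4 in the knockdown. Tracheal and epidermal markers (5 of 5) ranged from 284.7 to 312.2 in controls and stood at 483.5 and 571.2 in the knockdown. The pigmentation gene y, one of these, held 100.4 to 136.3 in controls and 373.0 and 447.0 in the knockdown. Without y this sum was lower in the knockdown, at 110.5 and 124.2 against 150.0 to 198.0 in controls. None of the markers measured was at 0 in every library. Their part in the values of the 5 genes was not tested.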
